A study of Mus musculus with 16 samples.

Results

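The large odorant receptor cluster of mouse chromosome 2 was followed in sorted cells of the olfactory mucosa. Its members were the genes measured by a chromosome 2 probe set whose symbol is Olfr followed by a number from 986 to 1274, without Olfr1099 and Olfr1100 and without control probe sets. The rule used names only and no measured value. It gave 203 genes, each with 1 probe set, of 19505 genes measured, beside 888 other odorant receptor genes. All 203 matched the reference gene table by Entrez ID and lay on chromosome 2. In that table the stretch from Olfr987 to Olfr1274 holds 293 Olfr genes, of which 222 are protein coding and 71 are pseudogenes. Of the protein-coding ones, 19 are no members, and 3 other protein-coding genes lie in the stretch.

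The samples came from C57BL/6 mice with an S100a5-tauGFP reporter, a GFP driven by S100a5, whose transcript rises in olfactory sensory neurons when they are active. The labels name 24 mice of both sexes, aged 7 to 12 weeks, kept singly in clean air chambers for 40 hours at 3.1 L/min. Stimulation began at hour 26, with pulses of 10 seconds repeated every 20 minutes, either of filtered air (vehicle) or of bourgeonal (odor), an aromatic aldehyde that smells of lily of the valley. Dissociated mucosa was sorted by GFP, and RNA of 3 mice per library was hybridised to Clariom S arrays. The 16 libraries formed 4 groups of 4, a GFP- and a GFP+ library from each of 4 vehicle and 4 odor pools. All groups carried the same reporter, and the zygosity of the reporter is not stated in the labels.

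The sort gates have contradictory labels. In 16 of 16 samples the title names one gate and the cell type field the opposite one. Groups here follow the titles, and a library is referred to as titled GFP- or titled GFP+. S100a5 was higher in the titled GFP- library of 8 of 8 pools, by 0.95 on the log2 scale in vehicle pools (adjusted p 0.000822) and 1.09 in odor pools (adjusted p 0.000282, limma). Each gate ratio below is therefore written as titled GFP- minus titled GFP+ on the log2 scale, so that a positive ratio means the side with more S100a5.

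Odorant receptors are G protein-coupled receptors on the cilia of olfactory sensory neurons. Each mature neuron transcribes a single allele of a single receptor gene, so the mRNA of a given receptor in a sorted population comes from the neurons that chose it. A receptor mRNA also falls or rises with the amount made per neuron. In pooled cells, fewer neurons of a type and less mRNA per neuron cannot be told apart. The receptors of the cluster belong to the large class that land vertebrates expanded (class II). Apart from 1 member, no ligand is named here.

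The DNA before the starts of 4 members is shown, from the members whose ratios were most extreme on each side among those whose annotated start lies before the coding start. They come from RefSeq's GRCm38.p6 table, run 5′ to 3′ for 250 bases up to the base before the start, and have the motif TAATTA in capitals. TAATTA is a homeodomain-type site, of the kind bound by neuronal regulators such as Lhx2 and Emx2.
Olfr1213 (chr2:88980268-88980517, minus strand): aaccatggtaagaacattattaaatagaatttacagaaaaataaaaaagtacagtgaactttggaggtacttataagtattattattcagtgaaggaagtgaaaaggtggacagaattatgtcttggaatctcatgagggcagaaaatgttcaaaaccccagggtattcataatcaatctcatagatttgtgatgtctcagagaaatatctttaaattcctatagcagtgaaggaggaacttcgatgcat
Olfr1140 (chr2:87745911-87746160, plus strand): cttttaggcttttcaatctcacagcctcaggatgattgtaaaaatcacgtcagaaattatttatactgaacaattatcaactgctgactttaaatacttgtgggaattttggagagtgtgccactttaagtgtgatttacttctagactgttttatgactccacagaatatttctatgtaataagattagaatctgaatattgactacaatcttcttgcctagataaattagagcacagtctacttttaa
Olfr1093 (chr2:86782295-86782544, plus strand): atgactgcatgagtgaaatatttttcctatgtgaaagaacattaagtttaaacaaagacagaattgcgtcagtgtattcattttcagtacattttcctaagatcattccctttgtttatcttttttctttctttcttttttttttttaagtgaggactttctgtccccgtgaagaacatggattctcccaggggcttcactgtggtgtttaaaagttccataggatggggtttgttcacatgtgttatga
Olfr1220 (chr2:89097964-89098213, minus strand): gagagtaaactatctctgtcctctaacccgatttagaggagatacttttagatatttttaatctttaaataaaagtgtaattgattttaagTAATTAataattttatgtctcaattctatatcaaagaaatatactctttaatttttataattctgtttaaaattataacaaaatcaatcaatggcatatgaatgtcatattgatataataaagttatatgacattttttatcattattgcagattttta
The first pair had the lower signals in titled GFP- and the second pair the higher ones. Of these 4 stretches only that of Olfr1220 held TAATTA, once. All were rich in A and T, at 67.2% for Olfr1213, 68% for Olfr1140, 65.2% for Olfr1093 and 79.2% for Olfr1220.

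Most members gave a signal above background. Background was gauged by 319 vomeronasal receptor genes, which belong to another organ, through the 95th percentile of their values in each library. That percentile lay between 4.29 and 4.97 on the deposited log2 scale. Of the 203 members, 148 were above it in all 16 libraries, 39 in 4 to 15, 8 in 1 to 3 and 8 in none. The 8 in none were Olfr1040, Olfr1053, Olfr1061, Olfr1089, Olfr1136, Olfr1141, Olfr1145 and Olfr1164. In at least 4 libraries 187 of 203 members were above background, beside 822 of 888 other odorant receptors and 13039 of 19505 genes. Per library 83.3% to 91.1% of the members were above it, and 81.5% to 91.2% of the other receptors, so this was not particular to the cluster. A library had between 169 and 185 members above background, and the range was 169 to 179 in odor titled GFP-, 175 to 185 in odor titled GFP+, 171 to 177 in vehicle titled GFP- and 180 to 182 in vehicle titled GFP+. The median over members of the group mean was 8.48 in vehicle titled GFP-, 8.35 in vehicle titled GFP+, 8.73 in odor titled GFP- and 8.26 in odor titled GFP+.

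The brightest probe set was that of Olfr1264, with 17.17, 17.65, 17.15 and 17.24 in the 4 vehicle titled GFP- libraries and 15.21, 15.13, 15.23 and 15.94 in the paired titled GFP+ libraries. In odor pools it read 17.18, 17.63, 16.98 and 17.15 in titled GFP- and 15.80, 15.40, 14.78 and 15.44 in titled GFP+. The gates of Olfr1264 did not overlap in either treatment. The next by mean signal were Olfr1197, Olfr1193, Olfr1222, Olfr1219, Olfr1247, Olfr1016, Olfr1220, Olfr1200 and Olfr1253. Signals of different probe sets also depend on the probes, so this order says nothing of the receptors' abundance relative to each other.

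The libraries differed in more than S100a5. Markers of mature olfactory sensory neurons averaged 15.98 to 16.26 in every library, with 1 of 10 called, higher in titled GFP- in both treatments. Omp, the marker of the mature neuron, had gate ratios of -0.02 and 0.11 that did not pass. Immune markers were lower in titled GFP- for 6 of 6 measured genes in both treatments, at list means of 4.36 to 5.91 against 13.35 to 14.79 in titled GFP+. Immature neuron markers were lower for 4 of 5 in both treatments (median ratio -2.85 in vehicle and -2.39 in odor pools). Sustentacular markers were lower for 4 of 5 in vehicle and 5 of 5 in odor pools, microvillar markers for 5 of 5 and Bowman's gland and globose basal or cycling markers for 3 of 3 each, in both treatments. No horizontal basal marker of 3 was called, and of 3 endothelial ones 1 was lower in odor pools. These markers move with every gate ratio below, and their part in the ratios was not tested.

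The first question was which receptors of the cluster were unequal between the gates. In vehicle pools 124 of 203 members passed an adjusted p of 0.05 (limma with the pool as a block, Benjamini-Hochberg over all 19505 genes), 77 higher and 47 lower in titled GFP-. Of all genes 16.2% passed, 6.23% higher and 9.95% lower. In odor pools 136 members passed, 86 higher and 50 lower, where 18.1% of all genes did, 7.82% higher and 10.2% lower. The members' shares of 61.1% and 67% lay close to those of the other odorant receptors, 63.3% and 65.4%. The median ratio of the members was 0.35 in vehicle and 0.53 in odor pools, against 0.22 and 0.30 in the other receptors and 0.09 and 0.10 over all genes. Centring each library on its own median raised the median of all genes to 0.44 in vehicle and 0.46 in odor pools. Members called higher were then 104 and 112 and those called lower 45 and 48, where 61.6% and 62.4% of all genes were called, and the members' medians were 0.70 and 0.89.

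A core of 120 members was called in both treatments in the same direction (59.1%, where 12% of all genes and 58.1% of the other receptors were). Of them, 74 were higher in titled GFP- (3.57% of all genes) and 46 lower (8.41%). No member was called in opposite directions. There were 4 members called in vehicle pools only (4.19% of all genes), 16 in odor pools only (6.07%) and 63 in neither (77.8%). The ratios of vehicle and odor pools, which share no library, correlated over the 203 members at a Pearson coefficient of 0.99 and a Spearman coefficient of 0.98, and their median absolute difference was 0.305.

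**Figure D1:**
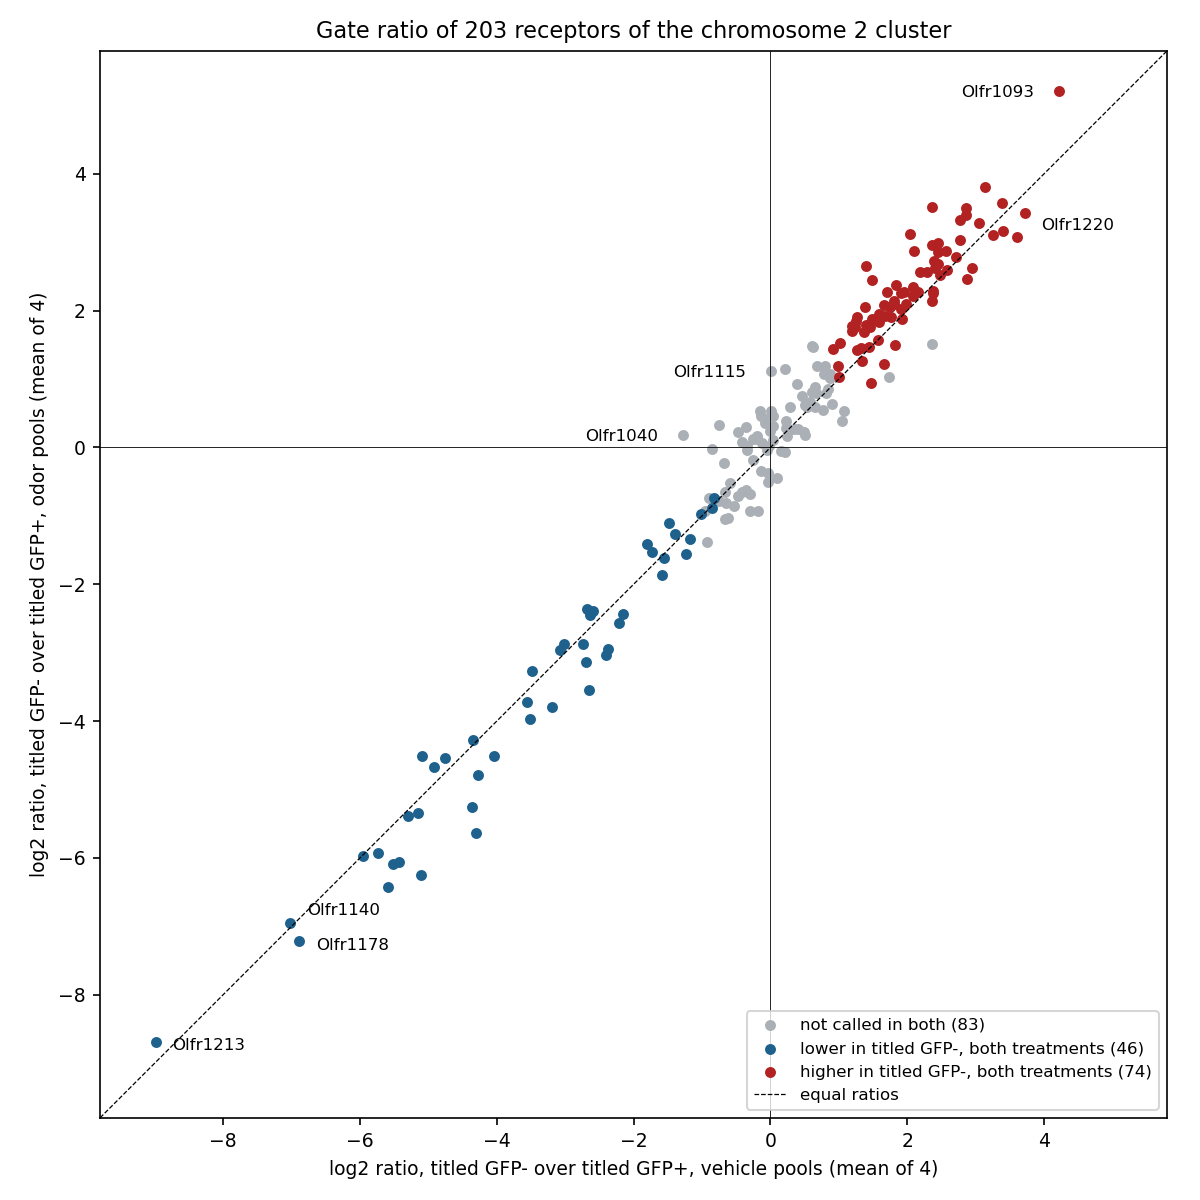
Log2 gate ratio of each of the 203 members, the mean of 4 vehicle pools on the horizontal axis against the mean of 4 odor pools on the vertical axis, with members called in both treatments in colour. The points lie along the line of equal ratios, from Olfr1213 at -8.99 and -8.69 to Olfr1093 at 4.22 and 5.21, and the lower side reaches further from 0 than the higher side.

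The sides differed in size. Members called lower in both treatments had a median mean ratio of -3.24, from -8.84 to -0.78, and those called higher a median of 2.09, from 1.02 to 4.71. A ratio beyond 4-fold in both treatments was seen for 35 members on each side (17.2%), where 0.79% of all genes were that much higher and 3.05% that much lower. Among the other odorant receptors 13.1% were that much higher and 14.9% that much lower. Beyond 16-fold there were 19 members on the lower side (9.36%, beside 6.19% of the other receptors and 1.06% of all genes). On the higher side there was 1 (0.493%, beside 1.46% of the other receptors and 0.0718% of all genes). These counts use the deposited signals, also where the dimmer gate was at or below background. With the library's background in place of lower signals, Olfr1105, counted beyond 4-fold, was at least 2.92-fold higher in vehicle pools. Olfr1163, also counted, was at least 2.45-fold and 2.89-fold lower in vehicle and odor pools. Olfr1002, counted beyond 16-fold, had ratios of -3.22 and -3.90 with that replacement. Of the members called lower, 45 of 46 had a negative ratio in 8 of 8 pools, and of those called higher, 73 of 74 had a positive ratio in 8 of 8 pools. The calls used these same pools, so this agreement of signs follows largely from the choice of members. Over all 203 members, 79 were above 0 in every pool and 48 below (9.74% and 10.6% of all genes, 35.8% and 26.9% of the other receptors).

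Olfr1213 had the lowest ratio. In vehicle pools 1 to 4 its signal was 6.11, 4.41, 4.04 and 5.63 in titled GFP- and 14.10, 14.00, 13.69 and 14.36 in titled GFP+. In odor pools it was 5.86, 5.68, 4.41 and 5.47 in titled GFP- and 13.85, 14.14, 13.90 and 14.30 in titled GFP+. All 8 titled GFP+ libraries were thus far above all 8 titled GFP- libraries, of which 3 were at or below background. The fitted ratio was -8.99 in vehicle pools (SE 0.29, adjusted p 2.26e-08) and -8.69 in odor pools (SE 0.29, adjusted p 2.7e-08). With the background of the library in place of lower signals the ratios were -8.65 and -8.58. Their mean over both treatments amounts to a bound of about 392-fold lower in titled GFP-.

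Olfr1178 and Olfr1140 came next. Olfr1178 gave 6.07, 3.83, 3.33 and 5.22 in vehicle titled GFP- against 11.34, 11.79, 11.75 and 11.12 in titled GFP+, and 4.80, 2.69, 4.18 and 4.54 against 11.19, 11.21, 11.63 and 11.06 in odor pools. Its titled GFP- values were at or below background in 5 of 8 libraries, and its ratios were -6.89 (adjusted p 4.37e-06) and -7.22 (adjusted p 2.76e-06). With background in place of lower signals they were -6.22 and -6.46. For Olfr1140 the vehicle values were 5.30, 4.89, 4.85 and 5.43 against 11.17, 12.23, 12.96 and 12.19, and the odor values 4.69, 6.15, 5.10 and 6.58 against 11.94, 12.54, 12.90 and 12.94. The gates stood apart in all 8 pools, at -7.02 (SE 0.34) and -6.95 (SE 0.34). With 2 of 8 titled GFP- libraries at or below background, the same replacement gave -7.00 and -6.93 for Olfr1140, so which of these members is the lower was not measured.

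Olfr1030 and Olfr1176 were measured above background in all 16 libraries, so their ratios rest on signal on both sides. Olfr1030 read 5.79, 6.37, 5.70 and 6.58 in vehicle titled GFP- and 11.52, 12.09, 11.64 and 11.54 in titled GFP+. In odor pools the values were 5.12, 5.21, 6.25 and 5.23 against 12.33, 11.99, 12.06 and 11.17. The ratio was -5.59 in vehicle (SE 0.24) and -6.43 in odor pools (SE 0.24). Olfr1176 had ratios of -5.52 and -6.08 (SE 0.35 each), and pool 3 had its highest titled GFP- value in both treatments, 8.32 and 7.83.

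The other 5 of the lowest ratios belonged to Olfr1046 (-5.95 and -5.97), Olfr1184 (-5.74 and -5.93), Olfr1123 (-5.44 and -6.06), Olfr1042 (-5.11 and -6.26) and Olfr1182 (-5.30 and -5.39), in vehicle and odor pools in that order. Adjusted p-values of these 5 ran from 7.24e-08 to 4.61e-05 (limma). Signals at or below background entered the titled GFP- means of Olfr1046 in 2 of 8 libraries, of Olfr1123 and Olfr1182 in 3 each and of Olfr1042 in 4. With background in their place the ratios were -5.88 and -5.97 for Olfr1046, -5.44 and -5.78 for Olfr1123, -4.78 and -5.81 for Olfr1042 and -4.83 and -4.93 for Olfr1182. The order among these members is therefore not settled. Olfr1184 was at or below background in 8 of 8 titled GFP- libraries. Taking in each such library the background value in place of the lower signal, it was at least 30.4-fold lower in titled GFP- in vehicle and at least 29.7-fold lower in odor pools. The vehicle ratio of Olfr1042 varied most, from -6.96 to -3.10 among pools (SD 1.66, n = 4).

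Over all 46 members called lower, 28 were above background in 8 of 8 titled GFP- libraries and 18 were not. Of the 74 called higher, 8 were at or below background in at least 1 titled GFP+ library. The dimmer gate was at or below background in all 4 libraries of a treatment for 5 members on the lower side and 3 on the higher side. Among the higher ones, Olfr1105 was at least 2.92-fold and 4.26-fold higher in titled GFP- in vehicle and odor pools by the same bound. Olfr1128, called higher, was above background in 3 of 16 libraries, and no fold is given for it.

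Olfr1093 had the highest ratio. Its vehicle signals were 10.20, 10.25, 10.23 and 10.17 in titled GFP- and 5.97, 5.43, 6.08 and 6.49 in titled GFP+. The odor signals were 10.03, 10.20, 10.01 and 10.24 in titled GFP- and 3.65, 5.31, 4.32 and 6.38 in titled GFP+. The titled GFP- values were nearly alike over all 8 pools, and the spread lay in titled GFP+ of odor pools (SD 1.19, n = 4). Its ratio was 4.22 in vehicle (SE 0.34, adjusted p 8.11e-06) and 5.21 in odor pools (SE 0.34, adjusted p 1.49e-06). Over both treatments it amounted to 24.7-fold, with background in place of the signal of the 1 odor titled GFP+ library that lay below it.

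Olfr1220 was bright in both gates. It gave 15.30, 15.14, 14.93 and 14.87 in vehicle titled GFP- and 12.10, 10.99, 9.92 and 12.35 in titled GFP+. In odor pools it gave 14.12, 14.30, 13.76 and 13.66 against 11.20, 10.20, 10.45 and 10.29. The group means were lower in odor than in vehicle pools in both gates, 13.96 against 15.06 and 10.54 against 11.34, which did not pass in either. The ratio was 3.72 and 3.42 (SE 0.34 each).

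Olfr1009 read 11.25, 11.55, 11.33 and 11.06 in vehicle titled GFP- and 8.44, 7.61, 7.88 and 7.70 in titled GFP+, and its ratios were 3.39 and 3.58 (SE 0.22 each). Olfr1132, a dimmer probe set, read 7.74, 8.64, 8.46 and 8.56 against 5.50, 5.46, 4.83 and 5.09, with ratios of 3.13 and 3.80 (SE 0.27 each). The gates did not overlap in vehicle pools for either receptor. The remaining 6 of the highest ratios were Olfr1037 (3.60 and 3.07), Olfr1104 (3.40 and 3.17), Olfr1102 (3.26 and 3.10), Olfr1111 (2.86 and 3.50), Olfr1263 (3.06 and 3.28) and Olfr1012 (2.86 and 3.40). All 6 were above background in 16 libraries, with adjusted p-values from 1.51e-06 to 0.000787 (limma). Among them Olfr1263 varied most between odor pools, from 2.41 to 5.07 (SD 1.21, n = 4).

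**Figure D2:**
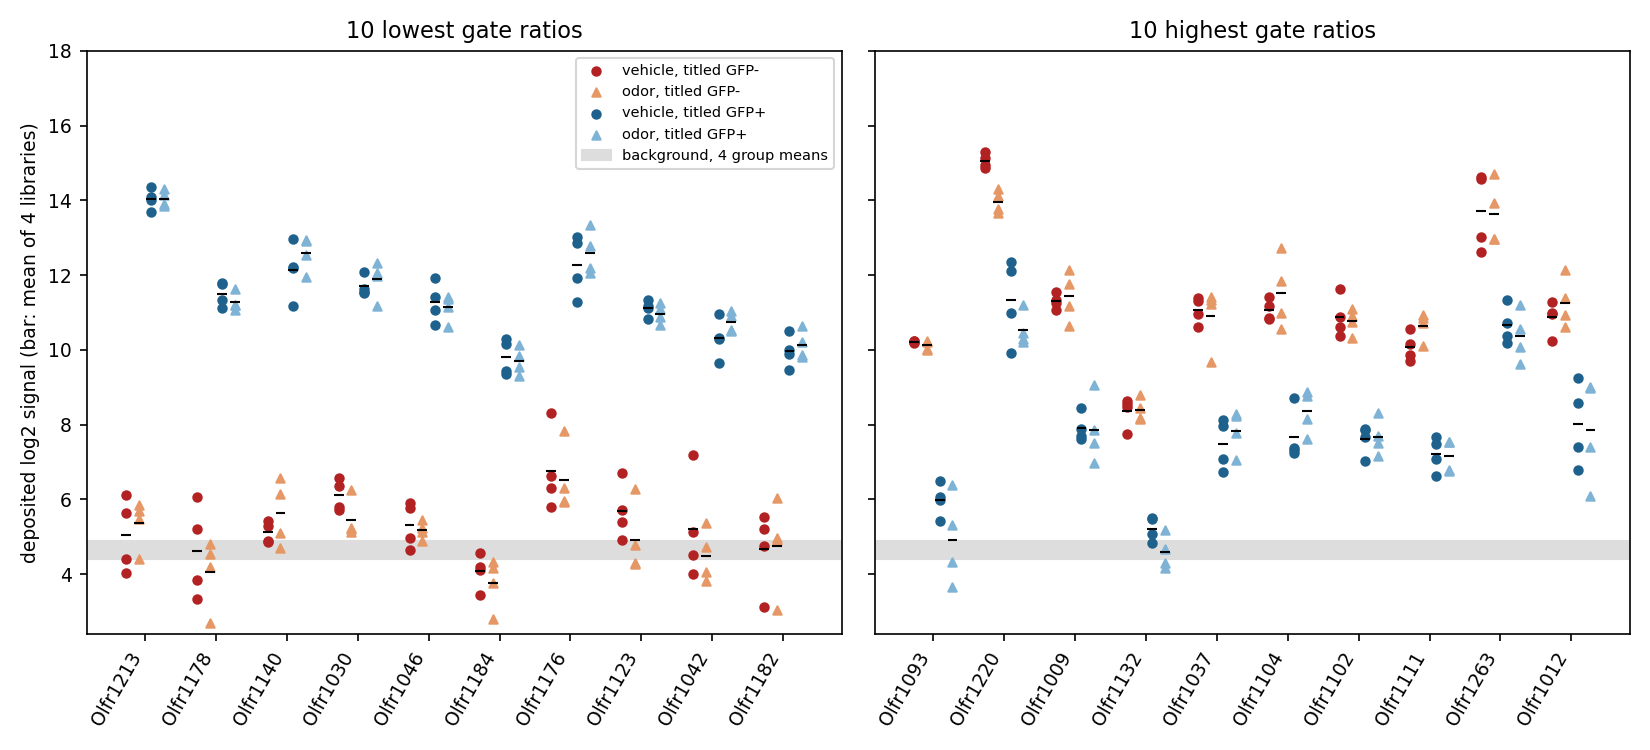
Deposited log2 signal of the 10 members with the lowest gate ratios (left) and the 10 with the highest (right) in each of the 16 libraries, with bars at the means of 4 and a grey band over the 4 group means of background, 4.41 to 4.89. On the left the titled GFP- points of most members lie near the band and the titled GFP+ points between 9.30 and 14.36, and on the right only Olfr1093 and Olfr1132 come down to the band, in titled GFP+.

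Among the bright members the gates did not all differ. Olfr1193 had ratios of -2.60 and -2.40, Olfr1219 -2.75 and -2.88, Olfr1200 -1.23 and -1.56, Olfr1016 1.66 and 2.08 and Olfr1264 1.93 and 1.88, each called in both treatments. Olfr1222 had ratios of 0.03 (95% interval -0.56 to 0.62) and 0.46 (-0.12 to 1.05), neither of which passed. Olfr1247 ranged from -1.62 to 1.24 among vehicle pools and from -1.97 to 0.53 among odor pools, so the pools of 1 treatment gave both signs. Olfr1253 did not pass either, at -0.30 and -0.68. Olfr1197 passed in odor pools only, at -0.65 (adjusted p 0.0495), beside -0.42 in vehicle pools (adjusted p 0.2). The difference between these values was 0.23 in size (adjusted p 0.936).

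Olfr1019, known as a receptor for trimethylthiazoline from fox odor, was looked up after the values were seen. It was lower in titled GFP- in 8 of 8 pools, with ratios of -2.70 (SE 0.33) and -3.14 (SE 0.33). Its libraries read 9.43, 9.02, 9.53 and 9.50 against 11.81, 12.25, 12.42 and 11.79 in vehicle pools.

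Members varied more among replicates than genes at large. The median SD over members within a group of 4 libraries was 0.403 to 0.513, against 0.248 to 0.257 over all genes. For pool ratios the median SD was 0.638 in vehicle and 0.630 in odor pools, against 0.325 and 0.313 over all genes and 0.589 and 0.572 over the other odorant receptors. The scatter of the ratios from gene to gene was larger still, with an SD over genes of 2.35 in vehicle pools, beside 2.27 in the other receptors and 0.89 over all genes. These are descriptions over genes, which are not replicates.

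Along the chromosome, higher and lower receptors were interleaved. A neighbour here is the next member in order of position. The 19 protein-coding Olfr genes of the stretch that are no members, and other genes outside the list, were passed over. Between a member and its next neighbour the mean gate ratio correlated at a Pearson coefficient of 0.133 and a Spearman coefficient of 0.161 over 202 pairs, which is weak and is a description with no test. Neighbours share libraries and can share near-identical sequence. At a distance of 2 members the Pearson coefficient was 0.092 and at 3 members -0.044. Of the 202 neighbour pairs, 34 were both called higher, 12 both lower and 26 had one of each, and in 130 at least 1 was not called. Over all members 36.5% were called higher and 22.7% lower, and the pair counts were not tested.

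The sharpest steps lay around the lowest receptors. Olfr1213, at a mean ratio of -8.84, stood between Olfr1212 at -0.27 and Olfr1214 at 0.06. Olfr1212 was above background in 16 libraries, and its group means were 10.37 in vehicle titled GFP- and 10.40 in titled GFP+. Olfr1214 lay near background, at 4.40 to 6.12 over the libraries. It was below background in library 1 of odor and of vehicle titled GFP-, which limits what its ratio near 0 shows. Olfr1138 at 1.83 was followed by Olfr1140 at -6.98, Olfr1030 at -6.01 by Olfr1031 at 2.65, and Olfr1045 at 2.56 by Olfr1046 at -5.96. In each of the last 3 steps both neighbours were called, in opposite directions.

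Runs of neighbours called the same way were short. The longest had 5 members, Olfr1079, Olfr1080, Olfr1082, Olfr1084 and Olfr1085, higher in titled GFP- at mean ratios of 1.39 to 2.67. Of the runs of 4, those from Olfr1033 to Olfr1037, Olfr1048 to Olfr1052, Olfr1101 to Olfr1105 and Olfr1126 to Olfr1130 were higher. The run of 4 from Olfr1181 to Olfr1184 was lower, at -5.84 to -2.29. Within it Olfr1183 had titled GFP- values of 7.16 to 8.76 in vehicle pools, clear of background.

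Counted in blocks of 20 successive members, the calls differed between blocks. Over all members 36.5% were called higher in both treatments and 22.7% lower, beside 3.57% and 8.41% of all genes. The first 2 blocks, from Olfr987 to Olfr1019 and from Olfr1020 to Olfr1045, had 7 higher and 3 lower and 9 higher and 4 lower (medians 0.90 and 0.97). The block from Olfr1046 to Olfr1084 had 11 members called higher and 1 lower, with a median ratio of 1.24. From Olfr1085 to Olfr1112 there were 8 higher and 4 lower (median 0.88), from Olfr1113 to Olfr1137 10 and 3 (median 0.97) and from Olfr1138 to Olfr1166 9 and 4 (median 0.22). The next blocks had 5 higher and 9 lower from Olfr1167 to Olfr1198 (median -0.49) and 3 higher and 8 lower from Olfr1199 to Olfr1221 (median -0.22). After them came 5 higher and 4 lower from Olfr1222 to Olfr1247 (median 0.22) and 6 and 5 from Olfr1248 to Olfr1270 (median 0.35), and the last 3 members held 1 of each. Members above background in all 16 libraries numbered 12 to 19 of 20 per block. The differences between blocks were not tested.

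**Figure D3:**
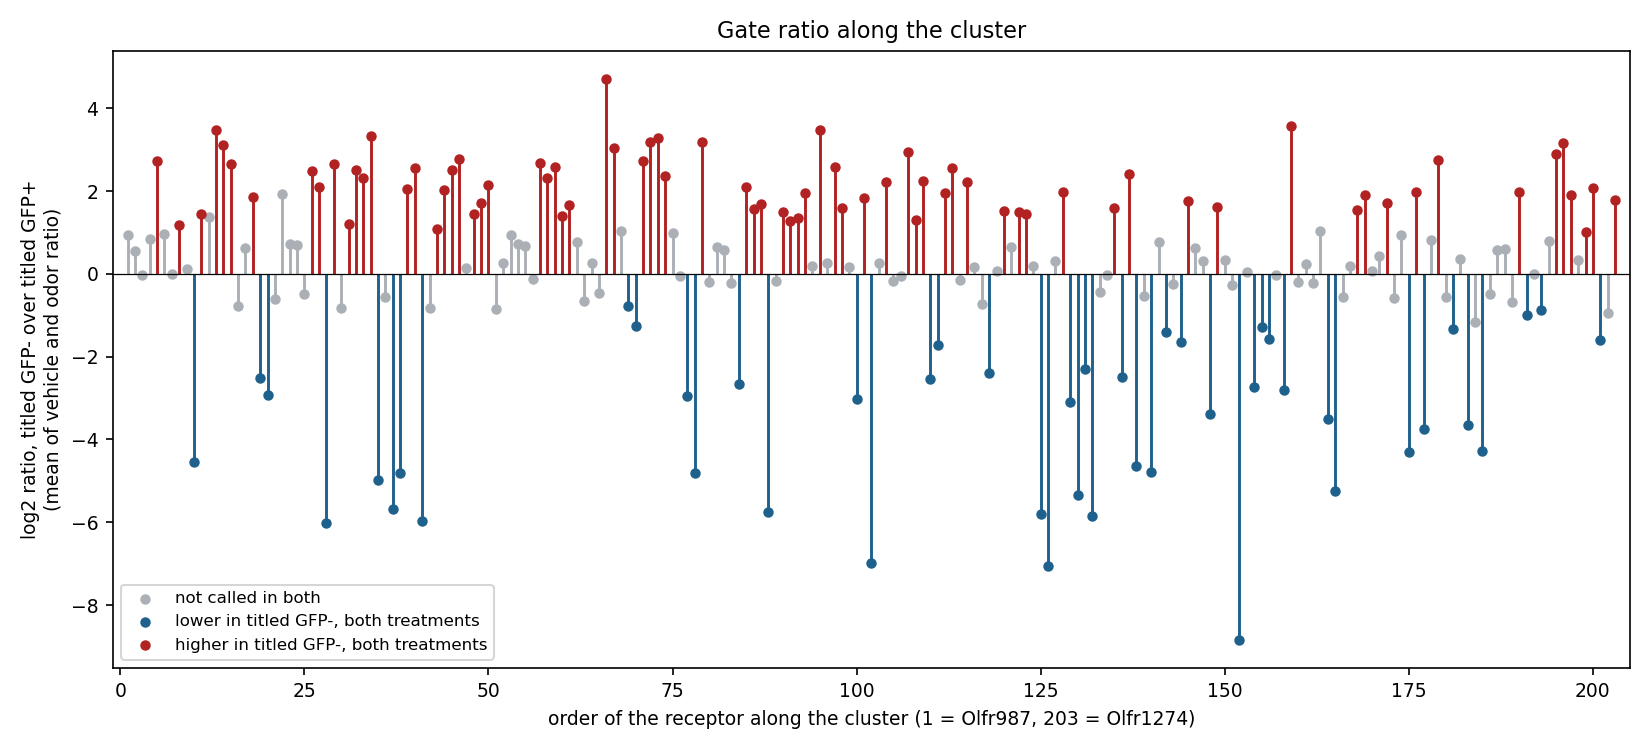
Mean of the vehicle and odor log2 gate ratio of the 203 members in their order along chromosome 2, from Olfr987 (1) to Olfr1274 (203), with members called in both treatments in colour. Red and blue stems both occur along the whole axis, 74 red and 46 blue in all. The block from Olfr1046 to Olfr1084 has 11 red stems and 1 blue stem while that from Olfr1199 to Olfr1221 has 3 and 8.

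Windows of 300 bases around the annotated start, 250 before and 50 after, were in the RefSeq table for 169 members, 170 windows in all. In 118 of them the start is the ATG of the coding sequence rather than a mapped start of transcription. The 250 bases before it then lie ahead of the coding part, and the 50 after begin with the ATG. TAATTA, which reads the same on both strands, occurred in 40 of 170 windows (23.5%), in 17.5% of 778 windows of other odorant receptors and in 5.29% of all 32851 windows. The median share of A and T was 68.2% in members' windows, 63.7% in the other receptors and 47.3% over all windows. The motif is made of A and T alone, and the part of base composition in its share was not tested. Members called higher held it in 12 of 66 windows (18.2%), members called lower in 10 of 37 (27%) and the others in 18 of 67 (26.9%).

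The letters TCCCNNGGG, the core of an Olf1/Ebf-type site, were searched on both strands and found in 3 of 170 members' windows (1.76%), against 2.7% of windows of other odorant receptors and 6.56% of all windows. Where the start lies before the coding start, it was in 3 of 52 members' windows (5.77%) and in 6.67% of 210 windows of other receptors. The full palindrome, the same letters followed by an A, was found in 0 of 170 and in 0.904% of all windows. These are matches of letters within the windows used.

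The next question was whether bourgeonal changed the gate ratio of any member. None of 203 passed in the difference, odor minus vehicle, and 0% of all genes did (limma). At an unadjusted p of 0.05, 12 members did, 10 of them higher in odor pools and 2 lower. Their share of 5.91% stood beside 7.55% of the other odorant receptors and 5.69% of all genes (2.79% higher and 2.89% lower). With 1 pool left out the count of members ran from 12 to 24. It was 24 without odor pool 1 (5.73% of all genes). Without vehicle pool 3 (6.6% of all genes) or odor pool 3 (5.16%) it was 19. With the replicate number as a block there were 32 members, beside 6.44% of all genes. With all pools and without that block, the smallest adjusted p of a member was 0.269. The median difference was 0.12 over the members, 0.13 over the other receptors and 0.02 over all genes, and that of the members was 0.02 without vehicle pool 1 and 0.23 without odor pool 1. It exceeded 1 in size for 8 members, 6 higher in odor pools and 2 lower.

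The 5 members with the highest moderated t were Olfr1040, Olfr1151, Olfr1115, Olfr1134 and Olfr1049. For Olfr1151 the pool ratios were 2.11, 2.11, 2.62 and 2.59 in vehicle and 4.05, 3.06, 3.43 and 3.55 in odor pools. All odor ratios were above all vehicle ratios, with a difference of 1.16 (95% interval 0.63 to 1.70, adjusted p 0.777, exact permutation p 0.0286). Its mean signal was 10.38 (SD 0.14) in odor and 9.82 (SD 0.37) in vehicle titled GFP-, and 6.86 (SD 0.36) in odor and 7.46 (SD 0.26) in vehicle titled GFP+ (n = 4 each), and neither comparison within a gate passed.

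Olfr1115 had pool ratios of -0.22, -0.13, 0.16 and 0.25 in vehicle and 0.63, 0.74, 1.49 and 1.61 in odor pools. Near 0 in vehicle pools, it was called in odor pools at 1.12 (adjusted p 0.00136), and the difference was 1.10 (interval 0.53 to 1.67, adjusted p 0.807). Olfr1134 went from 2.43, 1.51, 1.86 and 2.37 to 2.51, 3.71, 3.18 and 3.09 (difference 1.08, adjusted p 0.823). Olfr1049 went from 0.61, 1.45, 1.79 and 1.75 to 2.41, 2.93, 1.92 and 3.37 (difference 1.26, adjusted p 0.823). For each of these members the exact two-sided permutation p over the 8 pools was 0.0286, the smallest that 70 assignments allow, and it is not adjusted for the choice among members.

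Olfr1040 had the highest t, but its signal was at or below background in all 16 libraries. Its vehicle ratios were -0.98, -1.43, -1.61 and -1.08 and its odor ratios 0.09, -0.09, 0.35 and 0.38. The difference of 1.46 had an interval of 1.01 to 1.91 and an adjusted p of 0.269. The vehicle titled GFP+ libraries stood apart, at 4.04, 4.02, 4.61 and 4.14, while the other 12 libraries read 2.58 to 3.28.

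At the other end the 5 lowest t were those of Olfr1039, Olfr1030, Olfr1020, Olfr1037 and Olfr1181. Olfr1039 had ratios of -3.07, -4.25, -5.12 and -4.77 in vehicle and -6.40, -4.96, -5.90 and -5.29 in odor pools, with 1 odor ratio inside the vehicle range (difference -1.34, adjusted p 0.823, exact permutation p 0.0571). Its titled GFP- signal was at or below background in 5 of 8 libraries, 4 of them odor libraries, and with background in place of lower signals the ratios were -4.04 in vehicle and -4.82 in odor pools. Olfr1030 differed by -0.85 (exact permutation p 0.0571) and Olfr1020 by -0.63 (exact permutation p 0.0286). Olfr1037 differed by -0.53 and Olfr1181 by -0.90 (exact permutation p 0.2 each). For Olfr1020 the odor ratios lay below all vehicle ratios. These differences moved with single pools. That of Olfr1020 was -0.36 without vehicle pool 2 and as low as -0.74, that of Olfr1037 -0.29 without vehicle pool 3 and -0.78 without vehicle pool 1, and that of Olfr1181 -0.51 without vehicle pool 4 and -1.36 without vehicle pool 2. Over all members, 6 had every odor ratio above every vehicle ratio (1.89% of all genes) and 1 had every odor ratio below (1.6%).

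**Figure D4:**
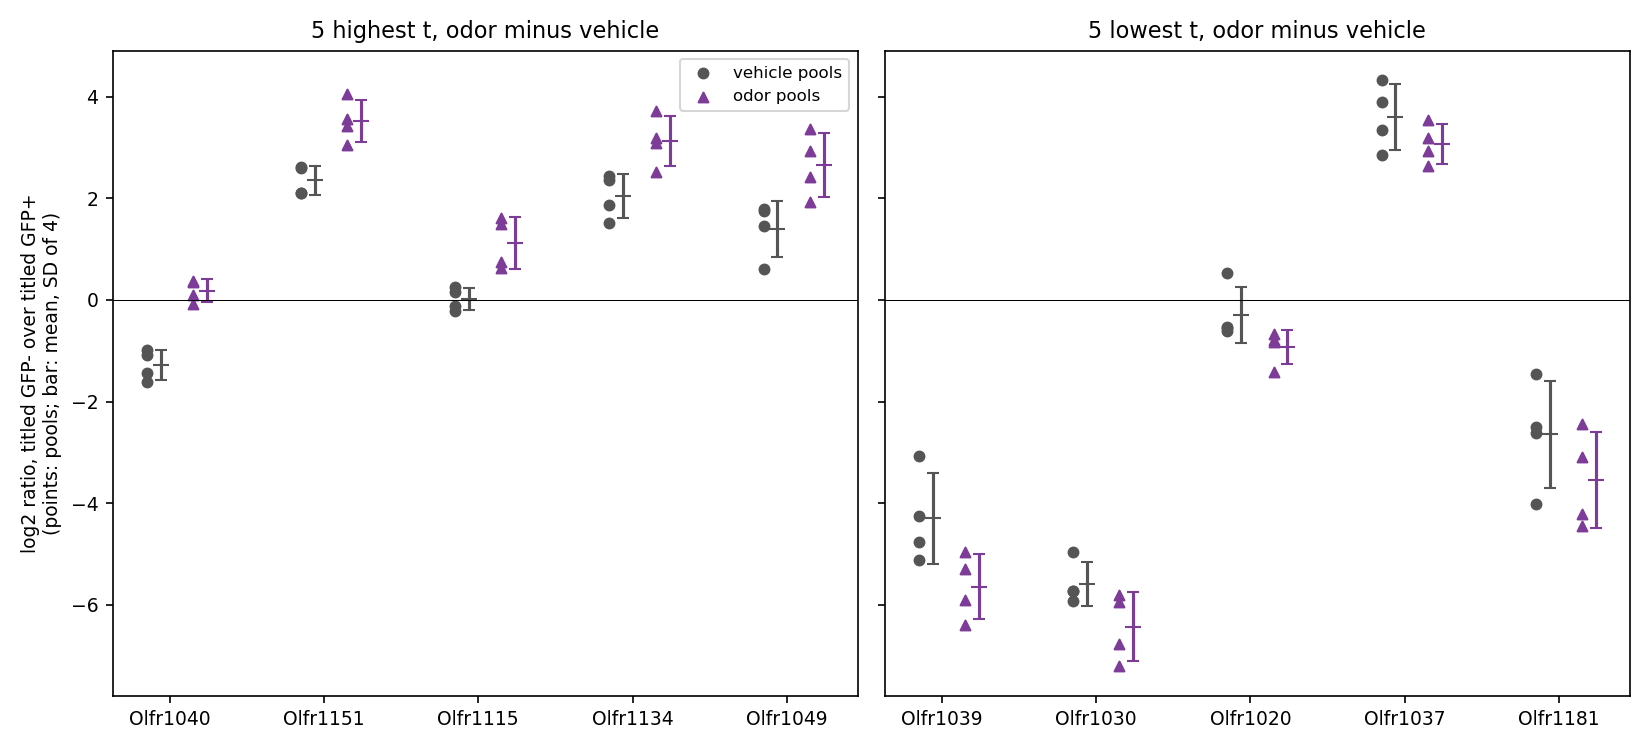
Log2 gate ratio per pool, 4 vehicle and 4 odor pools, of the 5 members with the highest moderated t for odor minus vehicle (left) and the 5 with the lowest (right), with bars at the mean and SD of 4. On the left the odor points lie above the vehicle points for all 5, and on the right only Olfr1020 has no overlap; no member shown passed the test over all genes.

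Within a gate, the 4 odor libraries were set against the 4 vehicle libraries. In titled GFP+ 1 of 203 members passed, Olfr1040, where 0.0103% of all genes did. It was lower in odor, at 2.59, 2.97, 2.93 and 2.66 against 4.04, 4.02, 4.61 and 4.14 in vehicle pools, by 1.41 in size (SE 0.18, adjusted p 0.0483, limma). The groups did not overlap, yet every value was below the background of its library. With the replicate number as a block, which paired the libraries in this gate, the adjusted p was 0.0911, and leaving out any 1 pool gave 0.111 to 0.268. At an unadjusted p of 0.05 there were 17 members, 7 higher and 10 lower. That was 8.37%, beside 6.98% of the other odorant receptors and 4.24% of all genes (2.25% higher and 1.99% lower). With the replicate number as a block there were 37, beside 5.99% of all genes.

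Next to it, Olfr1186 read 4.45, 4.12, 5.27 and 3.62 in odor and 6.58, 6.16, 5.94 and 5.51 in vehicle titled GFP+ libraries. All 4 odor values were below all vehicle values, a difference of -1.69 (95% interval -2.40 to -0.98) that did not pass (adjusted p 0.849). It was lower in 4 of 4 same-numbered pairs, with an exact sign-flip p of 0.125, the smallest that 16 assignments allow. The odor values of Olfr1186 in libraries 2 and 4 were below the backgrounds there, 4.40 and 4.57. That in library 1 was just above its background of 4.37. Signal near background thus limits the size of this difference. Olfr1232 differed by -0.66. The 3 highest t belonged to Olfr1085 at 0.60, Olfr1014 at 0.71 and Olfr1054 at 0.76, each with an adjusted p of 0.999 (limma). Over the 203 members the median was -0.04, but 0.0083 without vehicle pool 2 and 0.017 without odor pool 3, beside -0.10 in the other receptors and -0.01 over all genes.

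In titled GFP- no member passed, and 0% of all genes did (limma). There were 20 members at an unadjusted p of 0.05, 13 higher in odor and 7 lower. That was 9.85%, beside 6.98% of the other odorant receptors and 4.46% of all genes (2.34% higher and 2.11% lower). With the replicate number as a block there were 39, beside 5.48% of all genes. Without that block the smallest adjusted p was 0.816, that of Olfr1220. Its odor values of 14.12, 14.30, 13.76 and 13.66 were all below its vehicle values of 15.30, 15.14, 14.93 and 14.87, by 1.10 in size (SE 0.18, exact permutation p 0.0286). Exact p-values in this gate ignore the replicate number and are not comparable with the sign-flip p in titled GFP+. On the same side were Olfr1200, at -0.67, and Olfr1164, at -0.47 and below background in all libraries.

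Higher in odor, without passing, were Olfr1246 by 0.75, Olfr1095 by 1.15 and Olfr1115 by 0.67. Olfr1246 read 11.16, 11.47, 11.26 and 10.59 in odor and 10.54, 10.52, 10.46 and 9.96 in vehicle titled GFP- libraries, with no overlap (exact permutation p 0.0286). Olfr1095 read 6.30, 5.34, 5.76 and 6.50 against 4.39, 5.37, 4.09 and 5.46, where background was near 4.81 and 4.89. The groups of Olfr1095 overlapped through odor library 2 (exact permutation p 0.0857). The median over members was 0.08, beside 0.02 in the other receptors and 0.01 over all genes. The comparisons within the gates and the difference of ratios share libraries, so their values for a member are not independent of each other.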

How the data were processed

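Arrays of 16 libraries, 4 groups of 4, were analysed from the deposited log2 values, for which the submitters' processing notes name Affymetrix Expression Console. Its version, the summarisation method and the array's genome build were not stated there. The log base is read from the values. Precision is limited by the number of arrays. Of 28846 probe sets, 94 spike-in or background controls were left out, as were 6546 whose ID contains neg or pos, and 2634 that name no gene were not used. Where a gene had several, the probe set with the highest mean was kept, which gave 19505 genes. Near-identical receptors can share probes, which was not examined.

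All genes were tested with limma (version 3.58.1, R 4.3.3; lmFit and eBayes, two-sided, Benjamini-Hochberg over 19505 genes, threshold 0.05). Gate ratios and their difference came from 1 fit of 16 libraries with the pool as a block, and odor against vehicle within a gate from 8 libraries without a block. The fits were also run on simulated data, in which genes varied independently and replicate numbers shared nothing across treatments. The outcome is not reported here, and nothing above rests on it. The labels do not say that a pool's gates share mice. This was inferred from the count of mice, and p-values measure the spread between these libraries. In titled GFP+, same-numbered odor and vehicle libraries deviated together from their group means (correlations of 0.157 to 0.210). In titled GFP- these correlations were also positive, at 0.088 to 0.161. The fit with the number as a block is therefore given where it changes a call. It is also given where it moves a count of odor effects by over 1.5 times. Exact tests flip signs within numbers in titled GFP+ and exchange all 8 libraries freely in titled GFP-. The latter ignore the shared number, so exact p-values are not comparable between the gates.

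The members and lists were chosen with earlier results of these data known. Named members were the 10 highest and 10 lowest mean gate ratios among those called in both treatments with the brighter gate above background, for the difference the 5 highest and 5 lowest moderated t, within each gate the members that passed and the 3 highest and 3 lowest t, and the 10 brightest. Members outside this rule are named as examples of position, background or bounds after their values were seen. Alternatives changed the scaling, the filter on dim genes, the probe sets, the variance model, the block, the libraries fitted and the pools. Replacing signals below background by background was chosen after seeing the data. A comparison of protein likeness was not run.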

Additional observations from a re-analysis of the deposited data

Results flagged for a closer look

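Of 80 groups of 4 values of the named members, 3 had a library or pool far from the other 3, by Dixon's gap measure at its 95% critical value. Chance alone marks about 1 in 20 such groups. The vehicle ratio of Olfr1020 in pool 2 was 0.53, and the other 3 vehicle pools gave -0.61 to -0.53. Olfr1246 read 9.96 in vehicle titled GFP- library 4, against 10.46 to 10.54 in the others. Olfr1164, below background throughout, read 2.79 in odor titled GFP- library 4, against 3.09 to 3.12.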

How the results depend on the processing

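Members called for the gate ratio ranged from 120 to 149 in vehicle and from 126 to 160 in odor pools over the alternatives that kept all pools, the highest under centring on the library median, and from 116 to 129 and 122 to 137 with 1 pool left out. Without the replicate block there were 120 and 126. Under centring the share of all genes called that were higher went from 38.5% to 87.3% in vehicle and from 43.3% to 87.3% in odor pools, and under quantile normalization to 53.7% and 55%; calls over all genes numbered 12023 and 12174 under centring, against 3156 and 3521. The members' own share went from 62.1% to 69.8% and from 63.2% to 70%. With background in place of lower signals, chosen after seeing the data, 139 and 143 members were called, beside 31.1% and 34.8% of all genes, of which 62% and 64.3% were higher; the background itself differed between groups. All 680 recomputed gate ratios of the named members kept their direction and their side of the threshold. Those members were chosen for the most extreme ratios among the called ones, so this says little of the others. For the difference and for titled GFP- the count of members stayed at 0 under every alternative run, the intensity trend and the replicate block included. With the replicate block 32 members had an unadjusted p under 0.05 in the difference, 37 in titled GFP+ and 39 in titled GFP-, against 12, 17 and 20, while the shares of all genes were 6.44%, 5.99% and 5.48%, against 5.69%, 4.24% and 4.46%. The single call in titled GFP+, Olfr1040, became 0 under quantile normalization (adjusted p 0.0503), with dim genes left out (where it is not tested), with the replicate block and with any 1 pool left out (0 to 0). Members above background in at least 4 libraries were 187, and 191 or 181 with the 90th or 99th percentile. Signal near background limits the ratios of 26 of the members called in both treatments, whose dimmer gate was at or below it in at least 1 of 8 libraries, and for 8 of them in all 4 libraries of a treatment. Identity limits for proteins were not run, for want of a protein table.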
